A study of Mus musculus with 12 samples.

Results

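The genes described here encode nuclear subunits of the mitochondrial respiratory chain and ATP synthase other than those of complex IV: the subunits of complexes I, II, III and V, and cytochrome c. They were taken by gene symbol (Nduf followed by a letter a, b, c, s or v and a number, Sdha to Sdhd, Uqcr, Atp5, Cyc1 and Cycs), which gave 68 of the 78317 gene rows in the counted annotation. Of these rows, 35 belong to complex I, 4 to complex II, 9 to complex III with Cyc1, 1 to cytochrome c (Cycs) and 18 to complex V. The remaining row is Ndufa4, which was named as a complex I gene and is now counted with complex IV. The rule did not use any measured value. A total of 67 rows passed the filter on low counts, and the 67 genes have different symbols. The row that did not pass is a second Atp5o entry (ENSMUSG00000116933, chromosome 16, 91481286 to 91723870, GRCm39), which held 0 counts in all 12 libraries, so complex V is described by 17 genes. Ndufab1, the acyl carrier protein of complex I, has a symbol outside the rule.

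RNA was sequenced from snap-frozen heart ventricle of 12 uninjured C57BL/6J mice. In the injured-sire group, 6 mice were offspring of males given a cardiac cryoinjury, in which part of the heart wall is killed by contact with a cold probe, on postnatal day 1, and in the uninjured-sire group 6 mice were offspring of males without injury. All offspring were collected at 3 weeks post partum according to the labels, which also call them adult, and no treatment of the offspring themselves is named. The injured-sire group held 3 males and 3 females and the uninjured-sire group 4 males and 2 females, without sex, sire or litter being given per animal. These numbers cover all 12 mice, including an injured-sire mouse that was left out of the comparison. The p-values rest on the spread among these mice, and they would be too small if some were littermates. The comparison asks whether a neonatal heart injury of the father goes with different transcript levels in the hearts of its offspring.

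Totals ran from 30537315 to 42090257 counts per library, and the lowest count of any subunit gene in any library was 459, for Atp5s. The labels name injured-sire replicate 16 as an outlier of a principal component analysis, and it was left out of the group comparison, which set injured-sire replicates 12, 13, 14, 15 and 17 against uninjured-sire replicates 18 to 23. Replicate 16 also stood apart in the genes described here, and its values are given beside the others. Levels are given as CPM (reads of a gene per 1000000 of the library's reads, with TMM correcting for composition). Cardiomyocyte markers, a check for heart muscle, summed to 93193 to 107432 CPM in injured-sire and 90475 to 102149 CPM in uninjured-sire libraries. Their sum does not tell ventricle from atrium. Markers of airway and lung tissue varied most between animals: 10 of the 12 passed the filter, and the list summed to 38.8 to 611 CPM in injured-sire libraries, 0.909 to 380 CPM in uninjured-sire libraries and 1.21 CPM in replicate 16. The sum of the brown and white fat markers, 11 of 12 passing the filter, was 1246 to 1934 CPM in injured-sire and 875 to 1713 CPM in uninjured-sire libraries, and all 10 airway and 10 of the 11 fat genes had a log2 fold change above 0, with no call in either list. Sex-linked genes read as male in replicate 16, with 3.61 CPM for the X-linked marker and 219 CPM for the Y-linked ones. In the other injured-sire libraries these ran from 0.247 to 378 CPM and from 0.261 to 203 CPM. The compared injured-sire libraries thus hold a smaller share of males than the uninjured-sire ones.

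The respiratory chain carries electrons from food-derived carriers to oxygen and pumps protons across the inner mitochondrial membrane, and ATP synthase lets the protons back to make ATP. Complex I takes electrons from NADH and complex II from succinate, complex III passes them from ubiquinol to cytochrome c, and complex V is ATP synthase. Heart muscle depends on this chain for most of its ATP, and most of its subunits are encoded in the nucleus and imported into mitochondria, while a small set is encoded by mitochondrial DNA. Nuclear respiratory factors, the ETS factor GABP, YY1 and oestrogen-related receptors, with their PGC-1 coactivators, are known regulators of these nuclear genes.

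Promoter sequences are shown for a member of each complex. Whether the motifs in them go with the shared movement of these genes between libraries was not tested. Each window runs 5′ to 3′ from 250 bases before to 50 bases after the RefSeq start (GRCm38.p6), and the capitals mark letters of the NRF1 motif on either strand. The windows were chosen after the motif matches had been seen, as those of a member of each complex with an NRF1 match. The correlation of these genes with the mean of the other members over the 11 compared libraries was 0.968 for Ndufa5, 0.786 for Sdhd, 0.789 for Uqcrc1 and 0.940 for Atp5h. In complexes I, II and V these were the highest correlations among genes with a match, and Uqcrc1 was the only match found in complex III. They therefore do not describe genes with a match in general. Sdha (0.248) and Atp5g2 (0.377) also had a match, and Ndufb7 (0.972) and Ndufs7 (0.969) had none.
Ndufa5, minus strand, chr6:24527477-24527776: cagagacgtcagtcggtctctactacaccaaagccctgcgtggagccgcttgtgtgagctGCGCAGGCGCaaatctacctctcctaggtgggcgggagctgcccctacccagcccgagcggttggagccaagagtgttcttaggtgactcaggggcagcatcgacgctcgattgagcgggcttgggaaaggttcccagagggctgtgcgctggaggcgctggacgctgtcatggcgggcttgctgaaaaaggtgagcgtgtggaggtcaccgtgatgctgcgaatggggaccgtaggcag
Sdhd, minus strand, chr9:50603800-50604099: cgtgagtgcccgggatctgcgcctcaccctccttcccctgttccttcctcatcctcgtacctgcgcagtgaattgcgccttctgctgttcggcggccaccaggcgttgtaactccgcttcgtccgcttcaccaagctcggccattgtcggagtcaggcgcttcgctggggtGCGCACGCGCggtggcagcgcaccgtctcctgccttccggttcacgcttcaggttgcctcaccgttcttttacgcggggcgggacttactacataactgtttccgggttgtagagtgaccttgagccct
Uqcrc1, plus strand, chr9:108936398-108936697: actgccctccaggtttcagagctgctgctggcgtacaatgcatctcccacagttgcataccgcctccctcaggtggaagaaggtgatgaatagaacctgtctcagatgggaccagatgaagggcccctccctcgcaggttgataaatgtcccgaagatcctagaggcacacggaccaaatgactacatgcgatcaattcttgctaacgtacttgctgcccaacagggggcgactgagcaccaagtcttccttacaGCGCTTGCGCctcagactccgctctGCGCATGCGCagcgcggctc
Atp5h, minus strand, chr11:115419870-115420169: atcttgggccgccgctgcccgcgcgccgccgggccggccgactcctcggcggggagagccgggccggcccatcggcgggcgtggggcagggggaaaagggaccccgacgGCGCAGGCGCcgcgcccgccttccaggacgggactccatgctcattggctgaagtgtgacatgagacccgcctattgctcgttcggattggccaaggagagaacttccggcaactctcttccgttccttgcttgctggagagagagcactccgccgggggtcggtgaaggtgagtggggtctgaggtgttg
Ndufa5 encodes a matrix-arm subunit of complex I, Sdhd a membrane anchor of complex II, Uqcrc1 a core protein of complex III and Atp5h the d subunit of the peripheral stalk of ATP synthase. Windows were found for 56 of the 67 genes, 2 of them through an older name, and these 56 genes had 61 windows. The NRF1 motif, spelled GCGC, then any base, then TGCGC and searched on both strands, was in a window of 16 of the 56 genes (28.6%), against 5.19% of all 27025 genes with a window and 7.17% of the 17492 protein-coding ones. The YY1 motif (AANATGGC) was also in windows of 16 genes (28.6%), against 6.96% of all genes and 7.46% of protein-coding genes. The GABP motif (CCGGAAG) was in 13 (23.2%), against 9.93% and 12.9%. An oestrogen-related receptor motif (TNAAGGTCA) was in 3 (5.36%), against 1.43% and 1.19%, and a TATA box (TATAAA) in 5 (8.93%), against 15.7% and 14.8%. No match of a motif overlapped a match of another in the 61 windows. A match is a stretch of letters and not a measured binding site.

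Between genes, levels were compared per length, as RPKM (CPM per kilobase of merged exons). Median levels were 164 RPKM in complex I, 295 RPKM in complex II, 368 RPKM in complex III and 189 RPKM in complex V. The 2 highest genes of the 67 belonged to complex V: the catalytic F1 head subunits Atp5a1 and Atp5b stood at 1422 ± 67.3 RPKM in injured-sire and 1425 ± 41.2 RPKM in uninjured-sire libraries and at 1245 ± 48.01 RPKM in injured-sire and 1251 ± 16.2 RPKM in uninjured-sire libraries (mean ± SD, n = 5 and n = 6). Next came Atp5g3, a c-ring subunit, at 566 RPKM over the 11 libraries, and Atp5k, the e subunit, at 527 RPKM. In complex III the level was even, from 262 RPKM for Uqcrq to 479.6 RPKM for Uqcrfs1, the Rieske iron-sulfur protein, with Uqcr11 at 461 and Uqcrc1 at 286 RPKM. In complex II, Sdha, the flavoprotein that oxidises succinate, was at 365 RPKM, Sdhd at 319, the iron-sulfur subunit Sdhb at 272 and the anchor Sdhc at 128 RPKM.

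Complex V covered the widest range and complex I the next, with the highest gene 489 times and 55.02 times the lowest. In complex I, Ndufa1 (410.1 RPKM), an X-linked membrane-arm subunit, and Ndufb10 (403 RPKM) were highest, and Ndufb2 (7.45 RPKM) and Ndufb4 (11.7 RPKM) lowest. The lowest of complex V were Atp5l (2.91 RPKM) and Atp5s (7.56 RPKM). Ndufa4 stood at 473 RPKM and Cycs at 72.1 RPKM. Several low levels touch limits of the counting, which left out reads that map to several places. Of the 50-base windows in the transcripts of Atp5l, 68.5% also occurred in transcripts of other genes, and 36.98% did for Ndufb4. The share was at least 20% for 11 genes (Cycs, Ndufa12, Ndufb4, Ndufb9, Ndufs3, Ndufs5, Uqcrb, Atp5f1, Atp5h, Atp5l and Atp5o), so their levels are uncertain, and it was 0 for 36 genes. Exons of Ndufb2, Ndufb8, Ndufb9, Atp5g2 and Atp5o overlapped another gene on the same strand. For Ndufb9 that gene, Gm49356, was the only gene with shared windows, so these need not come from several places. Ndufb2, the lowest of complex I, shared 2.29% of its windows, and its merged exons cover 5628 bases.

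**Figure D1:**
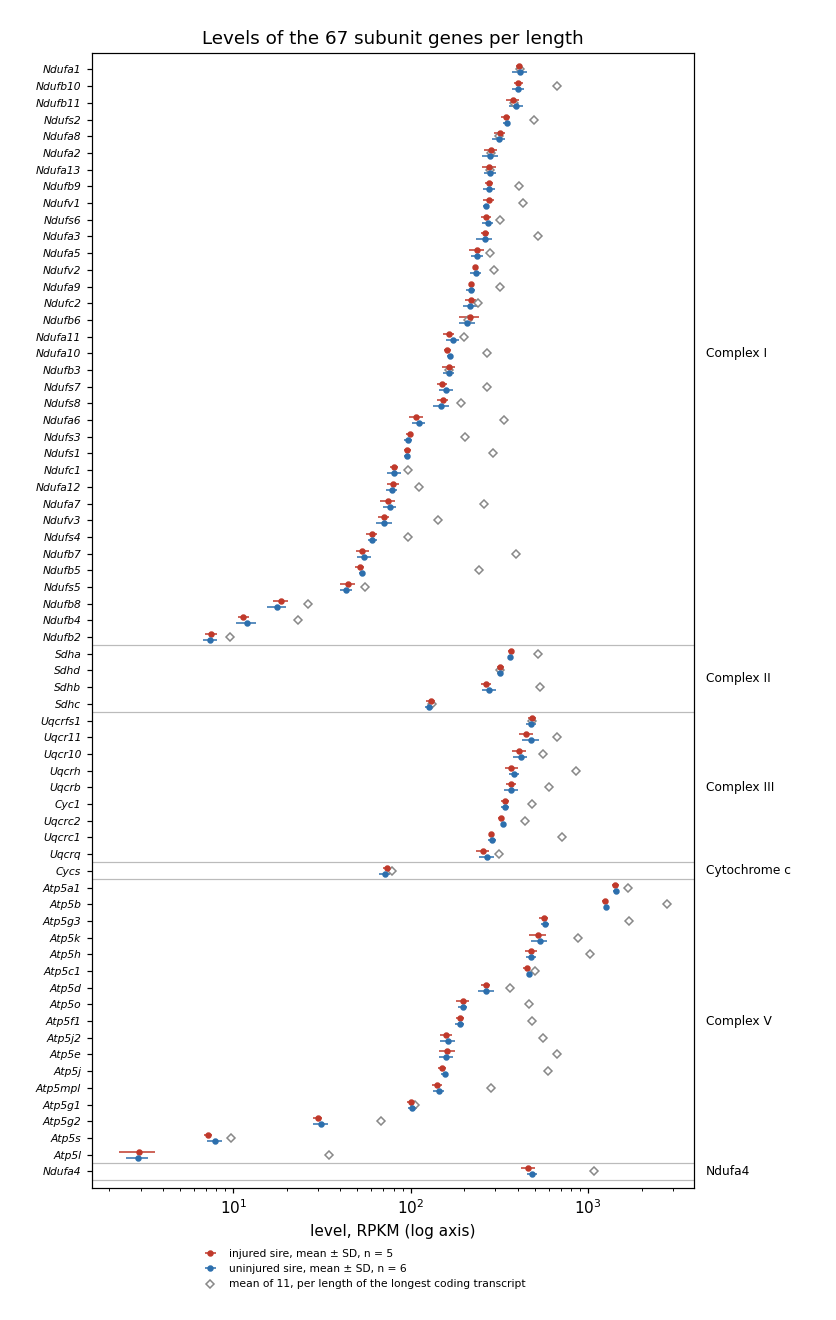
Level of each subunit gene in RPKM on a log axis, by complex and from high to low, with red points for the 5 injured-sire and blue points for the 6 uninjured-sire libraries (mean ± SD) and grey diamonds for the mean of 11 libraries per length of the longest coding transcript. Levels run from 2.91 RPKM for Atp5l to 1423 RPKM for Atp5a1, and the red and blue points of each gene lie close together.

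The length scale mattered for single genes. Per length of the longest protein-coding transcript, chosen after seeing the data, Atp5b (2760.4 RPKM) was above Atp5g3 (1707) and Atp5a1 (1669), and Ndufa4 reached 1071 RPKM. The 3 genes of the c ring, Atp5g1, Atp5g2 and Atp5g3, encode the same mature protein behind different import signals, and their order was the same on both scales. Atp5g3 had 566 RPKM per merged exons and 1707 RPKM per transcript, Atp5g1 101 and 105 RPKM, and Atp5g2 30.6 and 67.99 RPKM.

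Offspring of injured and of uninjured males had closely similar levels of these genes. Of 67 subunit genes, 0 were called, where 0.105% of the 17130 genes tested were (quasi-likelihood F test of edgeR, with p adjusted by Benjamini-Hochberg over all genes tested and a threshold of 0.05). None had an unadjusted p below 0.05, against 8.96% of all genes tested, and DESeq2 and limma voom called 0 of them too. The log2 fold changes of injured over uninjured sire ran from -0.12 (Atp5s) to 0.076 (Ndufb8), with 66 of 67 within 0.1 of 0. Their median was -0.0046, beside 0.00019 over all genes, and 29 were above 0 and 38 below, against 50.1% above 0 over all genes. In none of the 67 did the groups separate, where 0.414% of all genes had every injured-sire library above and 0.636% every one below the uninjured-sire libraries. In bulk tissue, fewer cells of a type and less RNA per cell cannot be told apart.

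In the main fit, without replicate 16 and with the mice taken as independent, the intervals bounded these differences. All 67 genes had a 95% confidence interval within 1.25-fold in both directions, which 41.8% of all genes tested did, and the widest bounds were 0.806-fold for Atp5s and 1.23-fold for Atp5l. The median half-width was 0.129 on the log2 scale for the subunit genes and 0.262 for all genes. These genes were abundant, with a median of 296 CPM against 11.04 CPM over all genes tested. How many of them lay above 0 depended on the setting: 40 without a scaling factor and 18 with upper-quartile factors, with medians of 0.010 and -0.014, and 61 with a median of 0.11 when a score of clock genes, which ran from -0.28 to 1.37 in injured-sire and from -1.23 to 0.48 in uninjured-sire libraries, was a covariate. No setting led to a call among the 67. Among the 27 named genes, single estimates in other settings ran from -0.262 (Atp5s) to 0.235 (Ndufb2). Intervals are given for the main fit only, so the bounds hold for that fit.

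**Figure D2:**
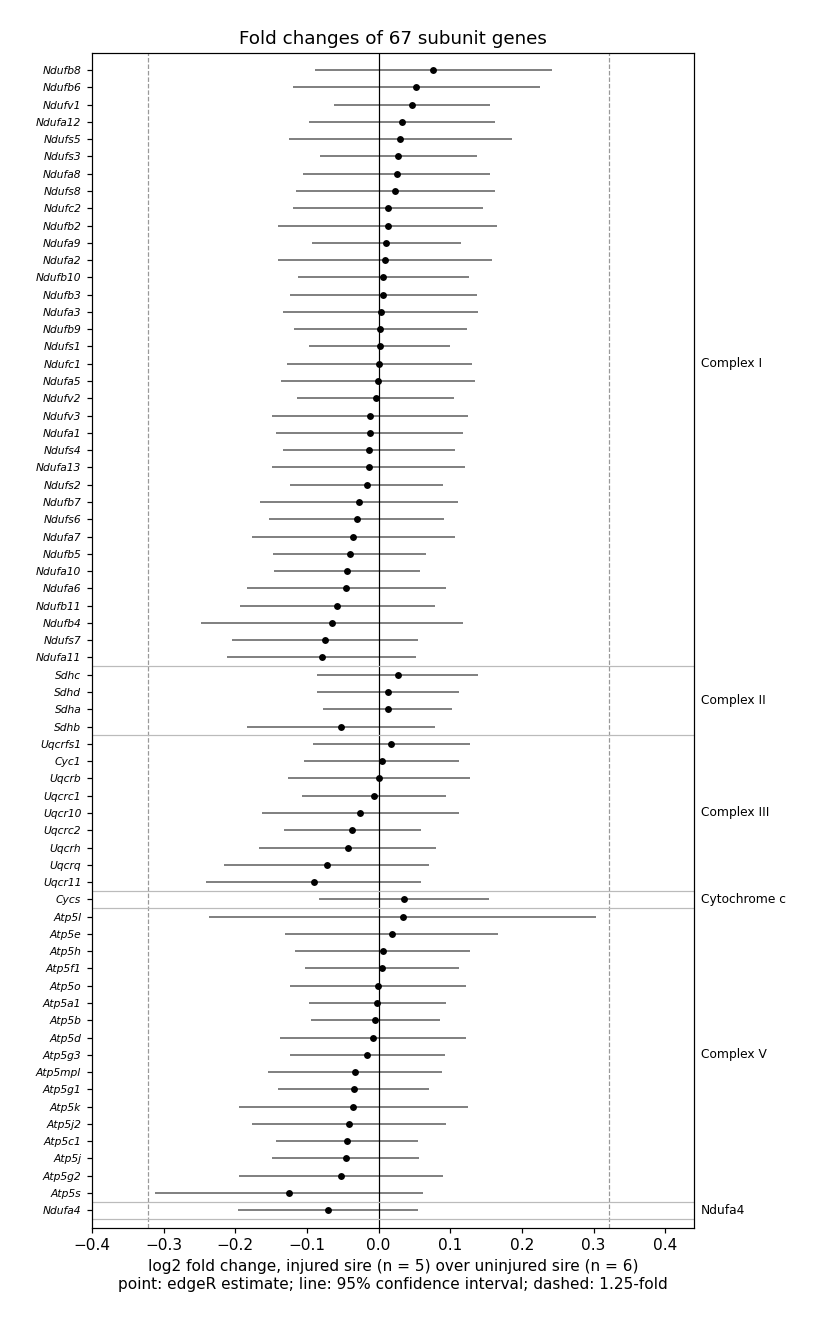
Log2 fold change of each of the 67 subunit genes, injured sire (n = 5) over uninjured sire (n = 6), with its 95% confidence interval, by complex; dashed lines mark 1.25-fold. Every interval crosses 0 and stays inside the dashed lines, with Atp5s reaching lowest and Atp5l highest.

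Summed over all 67 genes, the level was 34988 ± 1563 CPM in injured-sire libraries and 35276 ± 1457 CPM in uninjured-sire libraries (SD, n = 5 and n = 6). The sums in replicates 12, 13, 14, 15 and 17 were 34076, 35948, 32821, 35316 and 36780 CPM, against 33588 to 37624 CPM in the uninjured-sire libraries, and the groups overlapped over most of their range. As shares of a scaled library these sums are 3.499 ± 0.156% in injured-sire and 3.53 ± 0.146% in uninjured-sire libraries. Complex V contributed the most, 16526 ± 724 CPM in injured-sire libraries and 16655 ± 525 CPM in uninjured-sire libraries. Complex I summed to 9494 ± 516 CPM in injured-sire libraries and 9546 ± 531 CPM in uninjured-sire libraries, complex III to 5158 ± 232 CPM in injured-sire libraries and 5239.8 ± 286 CPM in uninjured-sire libraries and complex II to 2924 ± 96.4 CPM in injured-sire libraries and 2925 ± 97.8 CPM in uninjured-sire libraries. In each complex the difference between the means was smaller than the SD within either group.

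**Figure D3:**
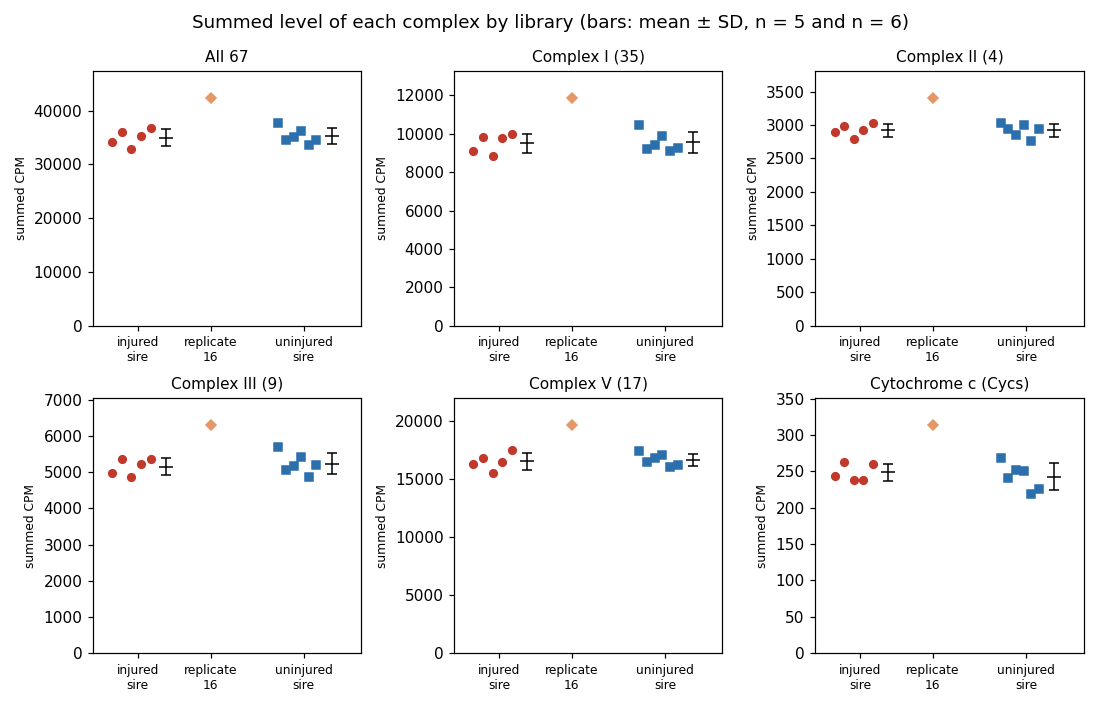
Summed CPM of all 67 genes and of each complex by library, with injured-sire libraries in red, replicate 16 as an orange diamond and uninjured-sire libraries in blue; black marks give the mean ± SD of the 5 and the 6 compared libraries, and axes start at 0. Red and blue points overlap in every panel, and replicate 16 lies above all of them, at 42318 CPM for all 67 genes.

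Complex I genes were split evenly, with 18 of 35 above 0 and 17 below and a median log2 fold change of 0.0010. The NADH module, which holds the flavin of Ndufv1 and iron-sulfur clusters, had 2 genes above 0 and 1 below, and the quinone module, which passes electrons to ubiquinone, 2 and 2. Of the supernumerary subunits, which surround the core, 3 of 9 in the matrix arm and 11 of 19 in the membrane arm lay above 0. Ndufa11 (chromosome 17, 57024767 to 57029141), a membrane-arm subunit, had the smallest p of complex I. Its levels were 163, 179, 167, 193 and 189 CPM in injured-sire replicates 12, 13, 14, 15 and 17, against a lowest of 173, a median of 182 and a highest of 214 CPM in the uninjured-sire libraries. The groups overlapped, and the log2 fold change was -0.079 ± 0.0636 (SE, edgeR adjusted p = 0.783). Ndufs7 (chromosome 10, 80084955 to 80092628), an iron-sulfur core subunit next to the quinone site, had 244, 272, 234, 266 and 272 CPM in the same injured-sire libraries, against a lowest of 246, a median of 262 and a highest of 309.6 CPM in uninjured-sire libraries. Replicate 14 was lowest and replicate 18 highest, and the log2 fold change was -0.075 ± 0.0626 (SE, edgeR adjusted p = 0.796).

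Ndufb8 (chromosome 19, 44537011 to 44543879), a membrane-arm subunit, had the highest fold change of the 67. Its levels were 56.9, 63.6, 49.1, 60.2 and 61.3 CPM in injured-sire replicates 12, 13, 14, 15 and 17, against a lowest of 51.2, a median of 52.97 and a highest of 68.7 CPM in uninjured-sire libraries. Replicate 18 alone set that highest value, and the groups overlapped (log2 fold change 0.076 ± 0.0794, SE, edgeR adjusted p = 0.8395). Ndufa1 (chromosome X, 36451241 to 36454816) and Ndufb11 are the X-linked members. Ndufa1 had 170.4, 177, 163, 179 and 166 CPM in injured-sire libraries, against a lowest of 141, a median of 178 and a highest of 185 CPM in uninjured-sire libraries, where replicate 19 held the lowest value. Ndufb10 averaged 491 ± 27.3 CPM in injured-sire libraries and 489 ± 38.8 CPM in uninjured-sire libraries (SD), Ndufb2 42.1 ± 3.44 CPM in injured-sire libraries and 41.8 ± 3.99 CPM in uninjured-sire libraries and Ndufb4 21.8 ± 1.52 CPM in injured-sire libraries and 22.8 ± 2.901 CPM in uninjured-sire libraries. For Ndufa1, Ndufb10, Ndufb2 and Ndufb4 the log2 fold changes were -0.013 ± 0.0628, 0.0067 ± 0.0576, 0.013 ± 0.0739 and -0.065 ± 0.0882 (SE). The other 28 genes of complex I had log2 fold changes between -0.058 (Ndufb11) and 0.053 (Ndufb6).

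Complex II, the succinate dehydrogenase that also runs in the citric acid cycle, had 3 of 4 genes above 0. Sdha (chromosome 13, 74470373 to 74498399) had 1513, 1524, 1473, 1468 and 1587 CPM in injured-sire replicates 12, 13, 14, 15 and 17, against a lowest of 1466, a median of 1501 and a highest of 1528 CPM in uninjured-sire libraries. Its values spanned a narrow range in both groups, and the log2 fold change was 0.013 ± 0.0433 (SE, 95% confidence interval -0.077 to 0.10, edgeR adjusted p = 0.963). Sdhb (chromosome 4, 140688514 to 140706504) was more variable, with 544, 619, 569, 645 and 610.3 CPM in injured-sire libraries, against a lowest of 530.1, a median of 618 and a highest of 694 CPM in uninjured-sire libraries. The lowest value of both groups was replicate 22 and the highest replicate 18, and the log2 fold change was -0.053 ± 0.0631 (SE, edgeR adjusted p = 0.8697). The membrane anchors, which bind ubiquinone, were close between groups. Sdhc averaged 420.1 ± 26.5 CPM in injured-sire libraries and 413 ± 22.1 CPM in uninjured-sire libraries (SD) with a log2 fold change of 0.027 ± 0.0541 (SE), and Sdhd averaged 394 ± 16.1 CPM in injured-sire libraries and 391 ± 12.3 CPM in uninjured-sire libraries with 0.013 ± 0.0476 (SE).

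Complex III had 3 of 9 genes above 0 and 6 below, with a median log2 fold change of -0.025. Uqcr11 (chromosome 10, 80238831 to 80242664), a small membrane subunit, had the smallest p among them. Its levels were 256, 299, 262, 317 and 293 CPM in injured-sire replicates 12, 13, 14, 15 and 17, against a lowest of 266, a median of 293 and a highest of 349 CPM in uninjured-sire libraries. The log2 fold change was -0.091 ± 0.0721 (SE, 95% confidence interval -0.24 to 0.060, edgeR adjusted p = 0.781), and the groups overlapped. Uqcrq, a small subunit of the quinone-binding region, had 406, 500.1, 447, 490.0 and 492 CPM in the injured-sire libraries, against a lowest of 434, a median of 474 and a highest of 577 CPM in the uninjured-sire libraries. Replicate 12 was lowest for both of these small subunits. Uqcrc2, the second core protein, averaged 821 ± 32.2 CPM in injured-sire libraries and 843 ± 23.7 CPM in uninjured-sire libraries (SD), Uqcrc1 1178 ± 39.4 CPM in injured-sire libraries and 1184 ± 60.9 CPM in uninjured-sire libraries and Uqcrfs1 658 ± 34.4 CPM in injured-sire libraries and 650.3 ± 39.3 CPM in uninjured-sire libraries. Their log2 fold changes were -0.037 ± 0.0459, -0.0061 ± 0.0484 and 0.018 ± 0.0529 (SE). Cyc1, the haem subunit that hands electrons to cytochrome c, Uqcrb, Uqcrh and Uqcr10 lay between -0.043 and 0.0042.

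Cytochrome c, the mobile carrier between complexes III and IV, is encoded by Cycs (chromosome 6, 50539543 to 50543518) in somatic tissue. Its levels were 244, 263, 239, 238 and 259.9 CPM in injured-sire replicates 12, 13, 14, 15 and 17, against a lowest of 219, a median of 246 and a highest of 268 CPM in uninjured-sire libraries. The groups overlapped, and the log2 fold change was 0.035 ± 0.0571 (SE, edgeR adjusted p = 0.915). Ndufa4 (chromosome 6, 11900291 to 11907496) had 581, 696, 595, 694 and 612 CPM in the same injured-sire libraries, against a lowest of 623, a median of 664 and a highest of 739.5 CPM in uninjured-sire libraries. Replicates 12, 14 and 17 were its 3 lowest values, and the log2 fold change was -0.071 ± 0.0603 (SE, edgeR adjusted p = 0.7998).

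Complex V had 4 of 17 genes above 0 and 13 below, with a median log2 fold change of -0.016. In the F1 head, Atp5b (chromosome 10, 127919142 to 127926260) had 5205, 5328, 5034, 5231 and 5588 CPM in injured-sire replicates 12, 13, 14, 15 and 17, against a lowest of 5224, a median of 5304 and a highest of 5385 CPM in uninjured-sire libraries. The log2 fold change was -0.0046 ± 0.0434 (SE, 95% confidence interval -0.095 to 0.086). Atp5a1 had 4553, 4429, 4225, 4316 and 4764 CPM in injured-sire libraries, against a lowest of 4252, a median of 4514 and a highest of 4586 CPM in uninjured-sire libraries, with a log2 fold change of -0.0016 ± 0.04599 (SE). In both genes replicate 14 was lowest and replicate 17 highest, so the uninjured-sire values lay inside the range of the injured-sire ones. Of the central stalk, which turns inside the head, Atp5c1 averaged 857 ± 44.2 CPM in injured-sire libraries and 884 ± 26.4 CPM in uninjured-sire libraries (SD), a log2 fold change of -0.044 ± 0.0478 (SE).

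All 3 c-ring genes, whose ring turns as protons pass, had log2 fold changes below 0: -0.035 ± 0.0509 for Atp5g1, -0.052 ± 0.0685 for Atp5g2 and -0.016 ± 0.05197 for Atp5g3 (SE). They were below 0 under each of the 4 scalings tried, and Atp5g1 and Atp5g3 were above 0 with all 12 libraries and with the clock score as a covariate. Atp5g3 was also above 0 without injured-sire replicate 14 (0.015) and without uninjured-sire replicate 18 (0.0058). Atp5g2 had 52.3, 49.1, 45.5, 51.1 and 52.9 CPM in injured-sire replicates 12, 13, 14, 15 and 17, against a lowest of 45.01, a median of 54.8 and a highest of 55.5 CPM in uninjured-sire libraries. The peripheral stalk, which holds the head still, had 2 of 4 genes above 0, and its coupling factor Atp5j had the smallest p of the 4 (-0.046 ± 0.0496, SE, edgeR adjusted p = 0.848). Atp5l, the g subunit in the membrane part, ranged widely, with 17.1, 25.9, 15.4, 16.05 and 20.6 CPM in injured-sire libraries, against a lowest of 15.9, a median of 18.3 and a highest of 23.3 CPM in uninjured-sire libraries. Replicates 13 and 22 were high in this gene.

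Atp5s (chromosome 12, 69771724 to 69791434), named for coupling factor B and called Dmac2l in the RefSeq table, had the lowest fold change and the smallest p of the 67. Its levels were 14.8, 15.6, 14.04, 15.2 and 13.7 CPM in injured-sire replicates 12, 13, 14, 15 and 17, against a lowest of 13.1, a median of 16.5 and a highest of 17.8 CPM in uninjured-sire libraries. The lowest value of all was in uninjured-sire replicate 18, so the groups overlapped. The log2 fold change was -0.12 ± 0.0898 (SE, unadjusted p = 0.178, edgeR adjusted p = 0.746).

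Other genes of the pathway, on lists chosen by function, gave 0 calls as well. Over all genes tested, 0.105% were called and 50.1% had a log2 fold change above 0. Mitochondrial DNA encodes 10 subunits of complexes I, III and V, of which 6 passed the filter, and mt-Atp6, mt-Atp8, mt-Nd3 and mt-Nd4l held almost no counts in any library. The counting left out reads that map to several places, so low counts in these rows do not show that the transcripts were absent. The part of this limit in their counts was not tested. The 6 all had log2 fold changes below 0 (median -0.074), with mt-Nd4 at -0.12 ± 0.0557 and mt-Nd2 at -0.14 ± 0.0667 (SE). The groups overlapped in all 6, and the adjusted p of these genes was 0.539 and 0.541 (edgeR). The counted reads of mitochondrial subunit genes made up 11.03 ± 0.548% of counts in injured-sire and 11.4 ± 0.699% in uninjured-sire libraries (SD, n = 5 and n = 6). With rows that held almost no counts, this share may be incomplete. The 67 nuclear genes took 3.54 ± 0.132% of unscaled counts in injured-sire and 3.53 ± 0.158% in uninjured-sire libraries.

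Assembly factors, which build the complexes without staying in them, lay below 0 in 10 of 16 genes for complex I, 3 of 4 for complex II, 4 of 6 for complex III and 2 of 5 for complex V. Ndufaf5, which modifies Ndufs7 during assembly, had 12.9 to 14.7 CPM in injured-sire libraries and 14.9 to 18.4 CPM in uninjured-sire libraries, so the groups did not overlap (log2 fold change -0.26 ± 0.0834, SE, edgeR adjusted p = 0.291). Dmac1 was at -0.18 ± 0.07696, Sdhaf2, which helps to attach the flavin of Sdha, at -0.14 ± 0.06302, Uqcc2 at -0.11 ± 0.0716 and Tmem70, a factor of ATP synthase, at -0.10 ± 0.0588 (SE), with adjusted p-values of 0.464, 0.511, 0.693 and 0.639 (edgeR). Sdhaf4, Uqcc3 and Tmem242 were at -0.074 ± 0.0931, 0.088 ± 0.0779 and 0.027 ± 0.0694 (SE). Tmem126b, a complex I factor chosen after its values were seen, also did not overlap between groups, at 23.4 to 26.4 CPM in injured-sire libraries and 26.6 to 33.9 CPM in uninjured-sire libraries. Neither Ndufaf5 nor Tmem126b was called. Over all genes tested, 0.636% had every injured-sire library below the uninjured-sire libraries.

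Of 23 genes for carriers and substrates, 9 were above 0 and 14 below. Ckmt2, the mitochondrial creatine kinase of muscle, was at -0.13 ± 0.0464 and Coq2, an enzyme of ubiquinone synthesis, at -0.13 ± 0.0535 (SE, edgeR adjusted p = 0.385 and 0.477). Of 18 regulators of mitochondrial biogenesis, 8 were above 0 and 10 below. The smallest p belonged to Ppargc1b, a PGC-1 family coactivator, with 28.3 to 39.6 CPM in injured-sire libraries and 25.5 to 31.5 CPM in uninjured-sire libraries and a fitted log2 difference of 0.30 ± 0.0834 (SE, edgeR adjusted p = 0.1999). Esrrg, an oestrogen-related receptor, was at -0.16 ± 0.0796 (edgeR adjusted p = 0.574).

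Injured-sire replicate 16, outside the comparison, had higher levels of nearly all of these genes than any compared library. It was above all 11 libraries in 63 of 67 genes (94%), against 13% of all genes tested: 34 of 35 genes of complex I, 4 of 4 of complex II, 9 of 9 of complex III, 14 of 17 of complex V, Cycs and Ndufa4. The exceptions were Ndufa6, Atp5g2, Atp5l and Atp5s. These comparisons use CPM scaled by TMM. Of unscaled counts, the 67 genes took 3.92% in replicate 16, against 3.35% to 3.74% in the 11 compared libraries. After scaling, the share was 4.23%, against 3.28% to 3.76%, so scaling widened the lead of replicate 16. Its deviation from the mean of the 11 libraries had a median of 0.33 on the log2 scale and ran from 0.026 (Atp5g2) to 0.53 (Ndufb8). Ndufb8 stood at 81.4 CPM there, against at most 68.7 CPM in the other libraries, and Ndufa2 deviated by 0.48. Among the smaller deviations were 0.11 for Sdha, 0.17 for Atp5b and 0.20 for Atp5a1. With replicate 16 in the comparison, the median log2 fold change of the 67 genes was 0.049, 58 were above 0 and 0 were called.

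Other gene families were also high in replicate 16. It was above all 11 libraries in 82.4% of 17 cytochrome oxidase subunit genes, 74.4% of 78 mitochondrial ribosomal protein genes and 84% of 81 cytosolic ribosomal protein genes, with median deviations of 0.34, 0.26 and 0.26. The difference between these families and the 67 genes was not tested. Mitochondrial DNA-encoded subunits summed to 133089 CPM in replicate 16, against 101484 to 114672 CPM in the other injured-sire and 97947 to 123687 CPM in uninjured-sire libraries. Of unscaled counts they took 12.3% in replicate 16, against 10.1% to 12.0% in the 11 compared libraries.

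**Figure D4:**
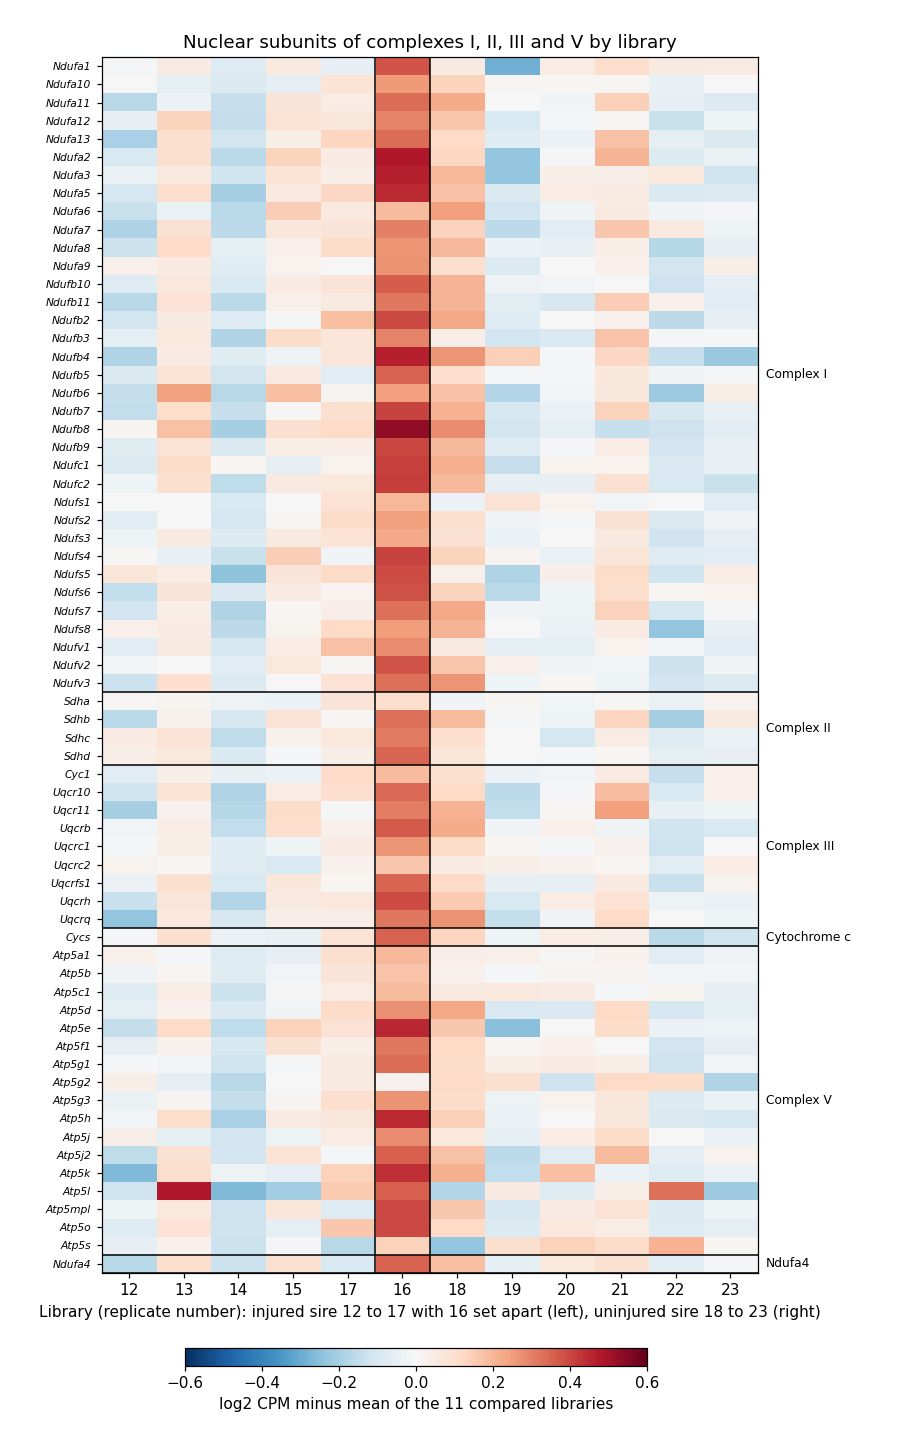
Deviation of each subunit gene (rows, by complex) from its mean over the 11 compared libraries, in log2 CPM, with injured-sire libraries on the left, replicate 16 between the black lines and uninjured-sire libraries on the right; red is above and blue below the mean. Columns rather than rows carry the pattern: replicate 16 is red in nearly every row (median 0.33), replicate 18 mostly red (0.13) and replicate 14 mostly blue (-0.12).

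Within the 11 compared libraries, these genes also moved together, and they did so within both groups. Replicate 14 was below the mean of the 11 libraries in 66 of 67 genes (median deviation -0.12) and replicate 12 in 54 (-0.062), while replicates 13, 15 and 17 were above it in 57, 46 and 58 (0.057, 0.036 and 0.063). In the uninjured-sire group, replicate 18 was above in 63 (0.13) and replicate 21 in 60 (0.053), and replicate 22 was below in 57 (-0.080). After removing group means, the median correlation over the 2211 pairs of these genes was 0.658 across 11 libraries, and 94.5% of pairs were above 0. It was 0.691 within complexes and 0.642 across complexes. For all tested genes the median was -0.0013, for the 1444 genes at 100 CPM or more 0.078, and leaving out replicate 18 lowered the value of the subunit genes to 0.576. In other families the median was 0.676 (17 cytochrome oxidase subunit genes), 0.623 (81 cytosolic ribosomal protein genes) and 0.317 (78 mitochondrial ribosomal protein genes). Shared movement was thus not particular to the subunit genes described here. Pairs share their libraries and depth, so the correlations are given as a description.

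By complex, the median correlation of pairs was 0.717 in complex I, 0.701 in complex III, 0.541 in complex V and 0.472 in complex II. Genes most like the mean of the others across the 11 libraries were Ndufb7 (0.972), a membrane-arm subunit, Ndufs7 (0.969), Ndufa5 (0.968), Uqcrh (0.964), the hinge protein of complex III, and Ndufb9 (0.956). A correlation of at least 0.8 was found for 40 of the 67 genes. The least alike were Atp5s (-0.435), Atp5l (0.152), Ndufs1 (0.1603), the largest core subunit of complex I, Sdha (0.248), Uqcrc2 (0.344) and Atp5g2 (0.377).

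Transcript length moved with these shifts. In replicate 16, other genes at 10 CPM or more had a median deviation of 0.26 for transcripts up to 1000 bases, 0.16 from 1000 to 2000, 0.054 from 2000 to 4000 and -0.076 above 4000 bases. Subunit genes deviated by 0.37, 0.29 and 0.26 in the first 3 of these classes (34, 24 and 7 genes), and the 2 genes above 4000 bases, Atp5g1 and Ndufb2, had a median of 0.36. Replicate 18 showed the same slope in other genes, from 0.15 to -0.079, and its subunit genes lay at 0.17, 0.11, 0.10 and 0.17. Other genes at 100 CPM or more with transcripts up to 1000 bases (78 genes) had a median pair correlation of 0.526, against 0.737 for the 34 subunit genes of that length and 0.650 for the 33 longer ones. The part of length in these shifts was not tested.

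**Figure D5:**
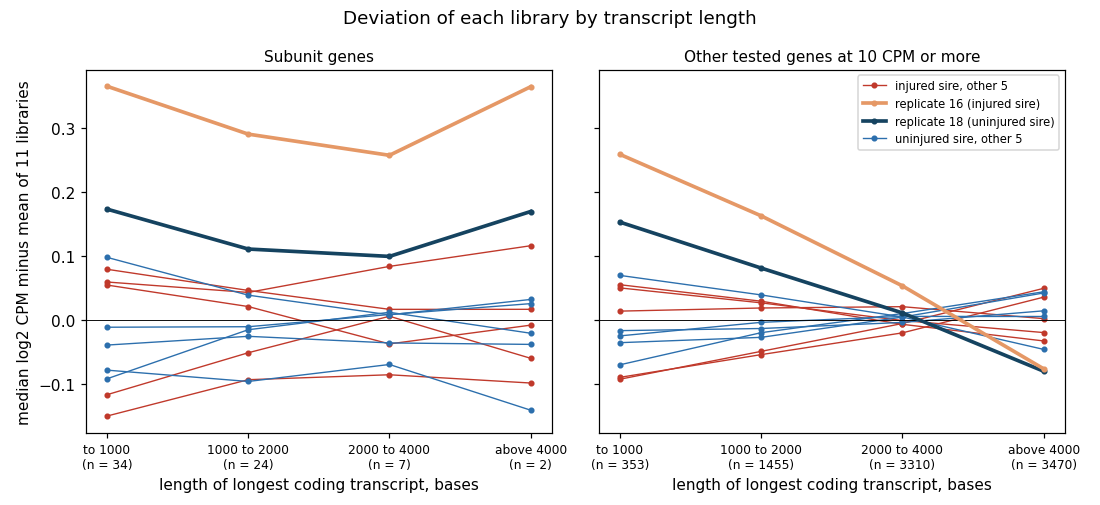
Median deviation of each library from the mean of the 11 compared libraries, in log2 CPM, by length of the longest coding transcript, for subunit genes (left) and other tested genes at 10 CPM or more (right); thin red lines are the other injured-sire and thin blue lines the other uninjured-sire libraries. Replicate 16 falls with length in other genes, from 0.26 to -0.076, and stays between 0.26 and 0.37 in subunit genes.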

How the data were processed

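The deposited table holds raw read counts per Ensembl gene, without normalization. They were made by the authors with featureCounts 2.1.1 (strand setting 2, no paired-end option, multi-mapping reads not counted, Ensembl release 114 on GRCm39), per the file headers. Tools named in the submitters' processing notes are STAR 2.7.10a, Subread 2.0.3, Salmon 1.9.0 and DESeq2 1.44.0. Another 11 sample columns were not used. Symbols came from GENCODE M21, used for names and transcript lengths only (51487 of 78317 IDs matched, with 99.3% of counts). Genes were tested in R 4.3.3 with edgeR 4.0.16 (filterByExpr with a minimum count of 10 and a minimum total of 15, TMM, robust quasi-likelihood F test, two-sided, Benjamini-Hochberg over 17130 genes, threshold 0.05), fitted on 5 injured-sire and 6 uninjured-sire libraries. The printed CPM use TMM factors of all 12 libraries, log2 CPM carry a prior count of 2, SEs come from the F statistic and intervals are at 95%.

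No library was a repeat of another: a chi-square test of counts over genes gave 13.3 to 40.3 per degree of freedom in the 30 pairs inside groups. The chain of steps was checked on simulated counts. The members, lists, tests and alternatives were chosen with earlier results of these data known. For each complex, the members named were those with the 3 smallest p (all of complex II and Cycs), the 2 highest and 2 lowest by RPKM, and paralogs, and for other lists the 2 genes with the smallest p. The clock score is the mean log2 CPM of 9 clock output genes minus that of Arntl, Npas2 and Clock. Alternatives were all 12 libraries, each library left out, other scalings, filters, tools (DESeq2 1.42.0, limma 3.58.1 voom, sva 3.50.0) and covariates (sex-linked, clock, airway and fat scores). Motifs were searched in RefSeq promoter windows of GRCm38.p6, and coordinates of the counted genes are on GRCm39. Erythroid, fibroblast, endothelial, macrophage and skeletal muscle markers gave 0 calls, against 0.105% of all genes tested. Of their tested genes, 1 of 7, 4 of 7, 3 of 6, 1 of 8 and 2 of 4 were above 0. In the same order, 2, 3, 0, 4 and 1 had an unadjusted p below 0.05 (edgeR), against 8.96% of all genes tested. The macrophage markers had a median log2 fold change of -0.18. Whether the share of these cells differed was not tested.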

Additional observations from a re-analysis of the deposited data

Results flagged for a closer look

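In 155 groups of 5 or 6 values, 10 held a library far from the others, 6.45%, where chance gives about 1 in 20 for independent groups. The groups were each gene and each complex sum in each group, and each sum with replicate 16 added to the injured-sire group. They are not independent, since the genes moved together and the sums reuse them, so the share is given as a description. Of the 8 single genes, 4 were set by uninjured-sire replicate 18, the library that was high in 63 of the 67 genes. It held 598 CPM of Ndufa10 (528 to 549 CPM in the other uninjured-sire libraries), 563 CPM of Ndufb10 (449 to 490.0 CPM), 68.7 CPM of Ndufb8 (51.2 to 54.1 CPM) and 270.1 CPM of Ndufv3 (207 to 227 CPM). Injured-sire replicate 14, the library that was low in 66 of 67 genes, held 31.7 CPM of Ndufs5 (38.7 to 40.6 CPM in the other injured-sire libraries) and 374 CPM of Sdhc (423 to 440 CPM). The last 2 were low in the uninjured-sire group: replicate 19 held 141 CPM of Ndufa1 (177 to 185 CPM) and replicate 22 held 797 CPM of Uqcrc2 (840.3 to 862 CPM).

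With injured-sire replicate 16 added to its group, it stood far above the other injured-sire libraries in the sum of complex III, with 6301 CPM against 4859 to 5373 CPM, and in Cycs, with 314 CPM against 238 to 263 CPM.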

How the results depend on the processing

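No paired analysis was possible because no replicate number occurs in both groups. The count of subunit genes called was 0 in all 14 alternative settings and with each of the 11 libraries left out, with a smallest adjusted p of 0.267 (1 surrogate variable, edgeR); unadjusted p below 0.05 was reached by 8 of the 67 genes with 1 surrogate variable, 7 with airway and fat scores, 4 with the clock score, 1 without uninjured-sire replicate 18 and 0 otherwise. The median log2 fold change of the 67 genes, -0.0046, moved furthest with the clock score (0.112, 61 of 67 above 0). For scale, single libraries of a group had an SD of 0.0797 in the median deviation of these genes. That SD is wider than the error of a difference between group means, so smaller shifts than it may matter too. The median log2 fold change was 0.049 with all 12 libraries, -0.060 with airway and fat scores and -0.053 with 1 surrogate variable, and -0.027 to 0.013 with single libraries left out (11 to 43 genes above 0). Signs of the 27 named genes, none called, changed in up to 15 genes (clock score). Over all genes, 18 were called, 28 with a filter of 1 CPM in 5 libraries, 49 at an adjusted p below 0.1, 130 by the DESeq2 Wald test, 236 without a filter, where 38125 genes were tested, and 0 with the clock score in edgeR, where 937 had an unadjusted p below 0.05. With single libraries left out, the count ran from 8 to 43: 28, 8 and 9 without injured-sire replicates 12, 13 and 14, and 43 and 9 without uninjured-sire replicates 22 and 23. The cause of these changes was not tested. The lowest count of a subunit gene in a library was 459, for Atp5s. The part of counting error in the spread between animals was not tested, and it is larger for genes with low counts.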
